A study of Homo sapiens with 191 samples.

Results

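Chromatin accessibility at the forkhead and SOX transcription factor genes was examined in GM12878, an established human B cell line immortalised with Epstein-Barr virus. The members were all protein-coding genes whose symbol is SOX or FOXA to FOXS followed by a number. They number 64 of 20090 protein-coding genes on chromosomes 1 to 22 and X, with 45 forkhead and 19 SOX genes. Accessibility was measured by ATAC-seq, in which the Tn5 transposase inserts sequencing adapters into open chromatin, on fixed and permeabilised cells that carried no antibody stain. Cells were transposed together and then sorted one by one into wells, and 96 libraries of plate 1 and 95 of plate 2 are covered, all of 1 group of untreated cells of 1 line. The measurement is 1 list of 50000 accessible regions of 501 bp that the authors called on the aggregated cells. Each region carries a score, the -log10 of the q-value of the call, so that a higher score means a stronger call.

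The list is 1 pooled measurement, with neither cell values nor replicates nor a contrasting group, and it gives no reads, so the depth behind a region cannot be read from it. All shares and scores below are therefore descriptions of this list without a test. Intervals on shares are exact binomial 95% intervals that cover counting error only, and genes are not replicates. The lowest score in the list is 16.0 and the median is 31.6, so a weaker open site is not seen, and a gene without a region here may still be accessible below that score. As a check of the cell type, 9 of 10 B cell marker genes had a region within 1 kb of a transcription start site (TSS), against 0 of 5 T cell markers (an interval of up to 52.2%). The strongest of the B cell markers were BLK (507.7), POU2AF1 (413.7) and EBF1 (231.4). Of the markers of other blood lineages, CD14 (33.1) was the 1 of 4 myeloid genes with such a region and EPOR (59.2) the 1 of 3 erythroid genes.

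Forkhead proteins bind DNA through a winged-helix domain and SOX proteins through an HMG box that bends the DNA in its minor groove. Many members of both families specify tissues in the embryo, such as FOXA genes in liver and gut or SOX10 in neural crest, and are silent in most other cells. Others act in lymphocytes. FOXO1 and FOXO3 are held in the cytoplasm by AKT phosphorylation when the B cell receptor and PI3K signal, and FOXO1 drives RAG gene expression in B cell precursors. FOXP1 is required for early B cell development, SOX4 for the survival of B cell precursors, and SOX5 is known from atypical memory B cells. Members were accordingly split by hand, from textbook roles but with earlier results of these data known. The classes were these 5 lymphoid members, 45 lineage factors of other tissues, 13 broadly used or other genes, and FOXL3, which was left unclassed. FOXP3, the regulator of regulatory T cells, stood among the 13 because its known role is in T cells and not in B cells. The lymphoid class thus leaves out this lymphocyte factor, which had no region within 1 kb of its TSSs. FOXP3 had 2 regions over the gene plus 10 kb on each side.

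Sequences from the strongest accessible regions of the 5 lymphoid members, of SOX6 and FOXD2, which have strong promoter regions, and of FOXN3, the member with the most regions, are shown because the scores below turn on them. Each is the exon-free window nearest the region's centre, of 150 bp except 100 bp for SOX6, on the plus strand of hg19. For SOX5 the strongest region that is not centred on an exon is given. Capitals mark a match to any of 15 short patterns searched on both strands.
FOXO1, intron, 1519 bp from a TSS, chr13:41238420-41238569: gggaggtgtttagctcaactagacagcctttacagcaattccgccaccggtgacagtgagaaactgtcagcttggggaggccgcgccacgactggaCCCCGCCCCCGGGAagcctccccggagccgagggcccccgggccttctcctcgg
FOXO3, upstream, 1226 bp from a TSS, chr6:108879737-108879886: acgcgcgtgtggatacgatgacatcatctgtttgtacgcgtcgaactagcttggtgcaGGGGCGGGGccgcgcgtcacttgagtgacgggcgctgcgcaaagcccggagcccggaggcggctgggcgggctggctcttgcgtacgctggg
FOXP1, intron, chr3:71276082-71276231: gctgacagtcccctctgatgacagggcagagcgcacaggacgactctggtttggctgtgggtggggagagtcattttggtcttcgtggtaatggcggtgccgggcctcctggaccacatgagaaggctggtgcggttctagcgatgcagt
SOX4, promoter, chr6:21593832-21593981: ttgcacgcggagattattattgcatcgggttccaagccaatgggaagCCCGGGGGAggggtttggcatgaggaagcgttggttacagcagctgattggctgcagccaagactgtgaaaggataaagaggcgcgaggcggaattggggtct
SOX5, intron, chr12:24352041-24352190: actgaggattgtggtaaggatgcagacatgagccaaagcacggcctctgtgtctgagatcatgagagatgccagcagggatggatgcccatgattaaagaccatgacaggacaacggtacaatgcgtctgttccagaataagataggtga
SOX6, promoter, chr11:16759872-16759971: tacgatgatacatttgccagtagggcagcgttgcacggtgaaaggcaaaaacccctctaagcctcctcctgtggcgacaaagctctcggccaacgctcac
FOXD2, promoter, chr1:47903390-47903539: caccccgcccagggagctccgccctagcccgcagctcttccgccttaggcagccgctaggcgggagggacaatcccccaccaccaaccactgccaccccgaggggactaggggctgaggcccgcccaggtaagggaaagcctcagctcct
FOXN3, intron, chr14:89850499-89850648: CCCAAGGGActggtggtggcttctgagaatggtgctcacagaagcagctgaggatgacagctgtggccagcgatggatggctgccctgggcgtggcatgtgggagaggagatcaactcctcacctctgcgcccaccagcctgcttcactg
The window of FOXO1 holds overlapping matches to the SP/KLF pattern GGGGCGGGG, here as its reverse complement, and the EBF1 pattern CCCNNGGGA. The FOXO3 window holds the SP/KLF pattern, and those of SOX4 and FOXN3 the EBF1 pattern. The other 4 windows hold no match to the 15 patterns.

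A promoter region, meaning a region centred within 1 kb of any annotated TSS of the gene, was present at 23 of the 64 members (35.9%, 24.3 to 48.9%). Over all protein-coding genes the share was 57.2%. By family it was 18 of 45 forkhead genes (40.0%) and 5 of 19 SOX genes (26.3%). Among the classes, 3 of 5 lymphoid members (60.0%, 14.7 to 94.7%) and 9 of 13 broadly used or other genes (69.2%, 38.6 to 90.9%) had a promoter region, both with intervals that hold the share of all genes. Of the lineage factors of other tissues, 11 of 45 (24.4%, 12.9 to 39.5%) had one, with an interval that lies below that share. These lineage factors have a median of 1 annotated TSS, against 5 over all genes, a limit taken up below. The intervals of the lymphoid members and the lineage factors overlap, and 5 genes are too few to place the lymphoid share.

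**Figure D1:**
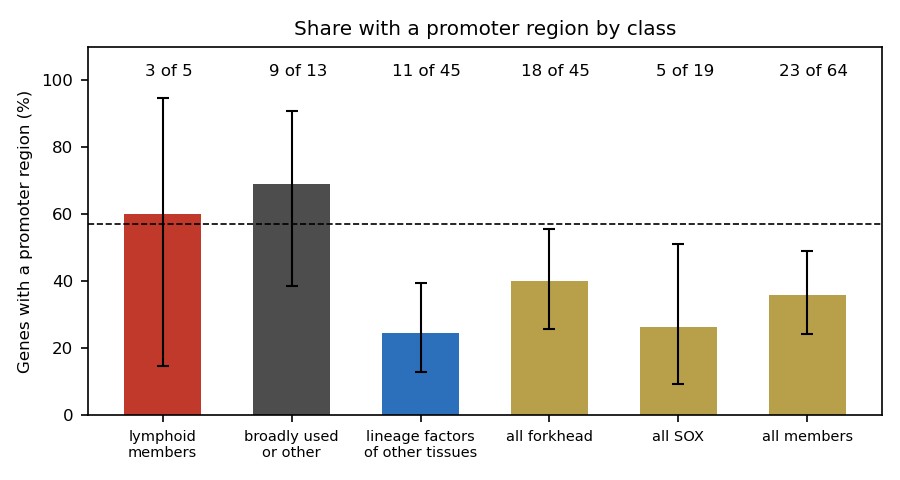
Share of genes with a promoter region (y axis, percent) by class and family, with exact binomial 95% intervals as error bars and the counts above the bars. The dashed line is the share over all protein-coding genes, 57.2%; the bar of the lineage factors of other tissues, at 24.4%, and its interval lie below it.

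Where the members had a promoter region, its score was mostly below that of other genes. The median score of the strongest promoter region was 62.6 over the 23 members, against 130 over all genes with a promoter region. A score of at least 100 was reached by 9 of these 23 (39.1%, 19.7 to 61.5%), against 57.0% of all genes with a promoter region, a share that the interval holds. FOXN2, a broadly expressed forkhead gene, led with 2583.0, which ranks 39 among the 50000 regions. That region lay 215 bp from the TSS of FOXN2 and 198 bp from that of a gene that is not protein-coding. The next was SOX6 with 749.5, a factor of cartilage and red cell development, at a promoter that also lies 110 bp from a TSS of C11orf58. FOXD2, a factor of kidney and mesenchyme, followed with 495.5. The scores of SOX4 (199.2), SOX9 (192.9), SOX12 (163.8), FOXN3 (125.7), FOXO6 (108.2), FOXO4 (104.4) and FOXP4 (74.9) complete the 10 strongest. Thus only SOX4 of the 5 lymphoid members stood among these 10.

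**Figure D2:**
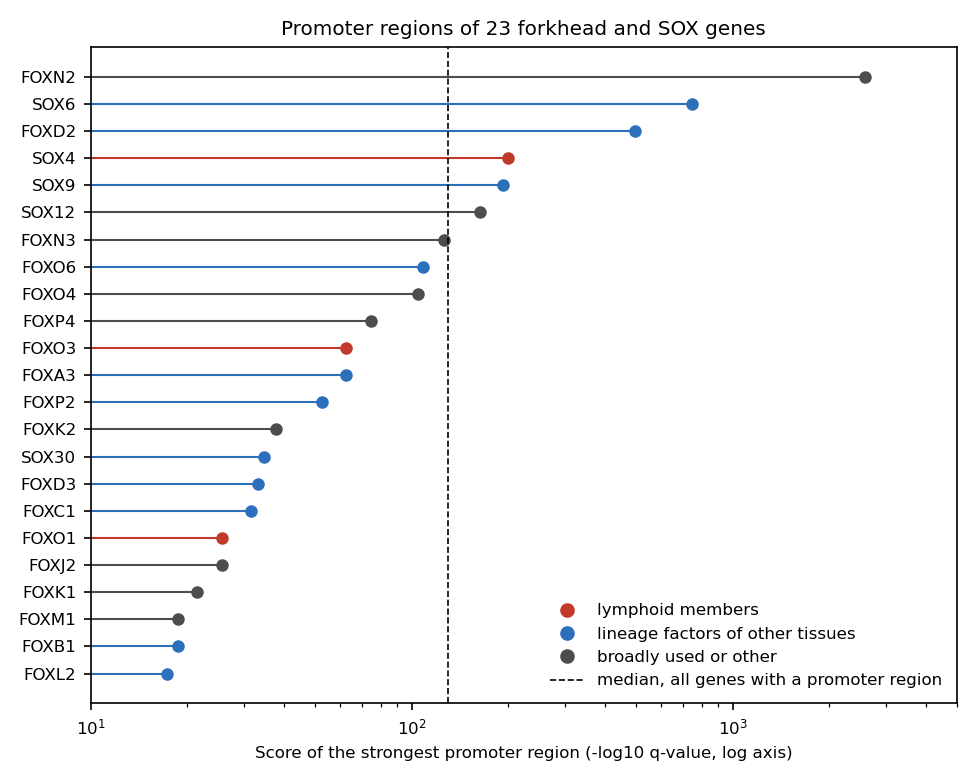
Score of the strongest promoter region (x axis, -log10 q-value, log axis) of each of the 23 members that have one, coloured by class, with the median of all genes as a dashed line at 130. FOXN2 stands apart at 2583.0, and the 3 lymphoid members are spread from 25.7 to 199.2.

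Of the lymphoid members, SOX4 had the highest promoter score. Its 7 regions scored 199.2 at 50 bp from its 1 TSS, 80.3, 76.7 and 36.2 upstream between 4289 and 5839 bp, and 36.2, 17.3 and 28.6 across the single-exon gene. That is 28.1 regions per 100 kb of gene and flanks, against a median of 2.64 over all genes. SOX4 spans 4.87 kb, so the flanks make up most of the length counted. The upstream regions stem from the same call, and the 7 regions from 5 calls. No other protein-coding gene had its outermost TSS within 500 kb of that of SOX4.

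FOXO1 had 8 regions, and all of its promoter regions were weak. The promoter regions scored 25.7 at 208 bp from a TSS, 24.3 at 559 bp and 21.4 at 95 bp from an internal start. The strongest intronic regions scored 96.9 and 78.5, followed by 28.6, 20.0 and 17.3. The 96.9 region, 1519 bp from a TSS, and the 24.3 promoter region stem from the same call. The promoter score of FOXO1 exceeded that of 9.97% of genes with a promoter region, whereas its number of regions exceeded that of 94.1% of all genes. FOXO3 showed the same order among 7 regions. Its promoter regions scored 62.6 and 34.7. The region 1226 bp upstream, just outside the 1 kb limit, scored 222.7 and lay 323 bp from the TSS of a gene that is not protein-coding. The 222.7 and 34.7 regions stem from the same call, which the 1 kb limit thus divides. The other FOXO3 regions scored 85.8, 30.1 and 16.0 in introns and 16.0 downstream.

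FOXP1 and SOX5 had no promoter region. FOXP1 has 67 annotated TSSs over 629 kb, and the closest of its 8 regions lay 1877 bp from any of them. All 8 were intronic, and they scored 180.3, 55.8, 34.7, 34.7, 24.3, 21.4, 18.7 and 17.3. SOX5 spans 1033 kb with 20 TSSs, and the closest of its 8 regions lay 25681 bp from any of them. Its strongest region (83.9) was exonic near the 3′ end of the gene and the 7 intronic ones scored between 17.3 and 54.1. Both genes therefore carried regions inside the gene body and none at an annotated start. Whether reads at these starts were lost in mapping or filtering was not tested.

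**Figure D3:**
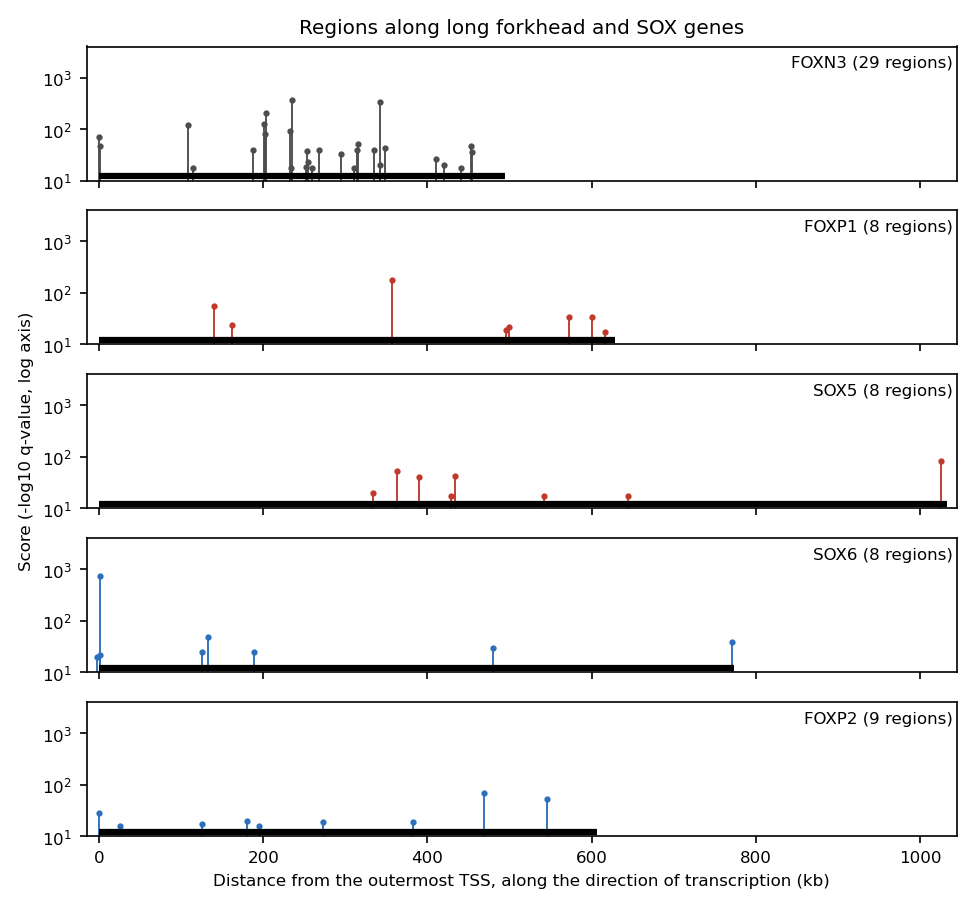
Regions along the 5 longest members that hold 8 or more regions, by distance from the outermost TSS (x axis, kb along the direction of transcription) and score (y axis, -log10 q-value, log axis), with the gene as a black bar. FOXN3 holds 29 regions, FOXP1 and SOX5 have none at their starts, and the 749.5 region of SOX6 sits close to its outermost TSS.

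Over the gene plus 10 kb on each side, 35 of 64 members (54.7%) had at least 1 region, against 74.7% of all genes. The members held 160 regions, and no region was counted for more than 1 member. Each lymphoid member had 7 or 8 regions, with a median of 8, while the median was 0 over the lineage factors, 3 over the broadly used or other genes and 2 over all genes. Gene length moves with this count. The median span was 124.9 kb for lymphoid members, 4.46 kb for the lineage factors, 54.6 kb for the broadly used or other genes and 27.3 kb for all genes, and its part in the count was not tested. Per 100 kb of gene and flanks, the median was 4.83 regions for lymphoid members, 0 for the lineage factors, 4.72 for the broadly used or other genes and 2.64 for all genes. SOX4 at 28.1 and SOX5 at 0.760 show how far the 5 lymphoid members lay apart on that scale.

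**Figure D4:**
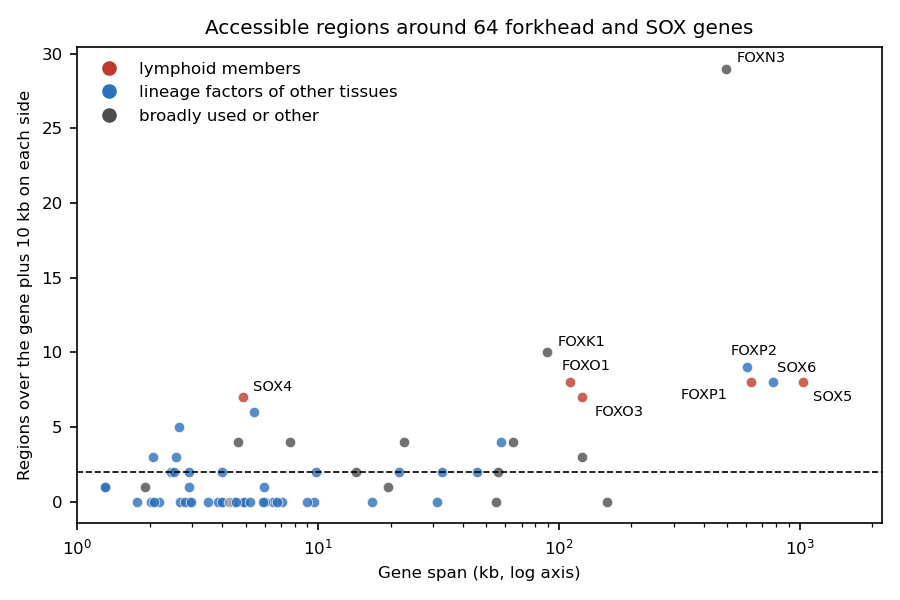
Count of regions in the gene and the 10 kb to either side (y axis) against gene span (x axis, kb, log axis) for the 64 members, coloured by class, with the median of all genes, 2, as a dashed line. Names are given for members with 7 or more regions; FOXN3 stands apart with 29, and SOX4 is the only one of them shorter than 10 kb.

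FOXN3, a checkpoint-linked forkhead repressor, had 29 regions over its 494 kb, more than 99.9% of genes. Only 4 of them lay at its own starts (125.7, 80.3, 71.3 and 39.4), and the remaining 25 were intronic, led by 364.3, 341.1, 201.3 and 121.7. The 201.3 region lay 1018 bp from a TSS of FOXN3, just outside the 1 kb limit. The other members with most regions were FOXK1 with 10, FOXP2 with 9, FOXO1, FOXP1, SOX5 and SOX6 with 8 each, and SOX4 and FOXO3 with 7 each, followed by SOX9 with 6. Among the 10 regions of FOXK1, a factor of metabolism and autophagy genes, the highest score of 667.5 belonged to the promoter of the neighbouring AP5Z1, 88 bp from its TSS, and its own promoter scored 21.4. FOXP2, known for its role in speech circuits, had 2 promoter regions (52.4 and 28.6) and 7 intronic regions of 16.0 to 67.8.

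The 11 lineage factors with a promoter region came from many tissues and were uneven in strength. SOX6 (749.5), FOXD2 (495.5), SOX9 (192.9), the chondrocyte and male gonad factor, and FOXO6 (108.2), a FOXO factor of brain, reached a score of 100. The other 7 were FOXA3 (62.6), FOXP2 (52.4), SOX30 (34.7), FOXD3 (33.1), FOXC1 (31.6), FOXB1 (18.7) and FOXL2 (17.3). FOXD2 had 5 regions, 4 of them upstream at 159.7, 137.5, 47.4 and 22.8, beside the 495.5 region. SOX9 had 6, with 39.4, 33.1, 31.6, 31.6 and 17.3 beside the 192.9 region, which also lay 75 bp from a TSS of SOX9-AS1. FOXC1, a factor of eye and mesenchyme, had 24.3 at 5 bp and 31.6 at 851 bp from its TSS and nothing else within 10 kb.

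**Figure D5:**
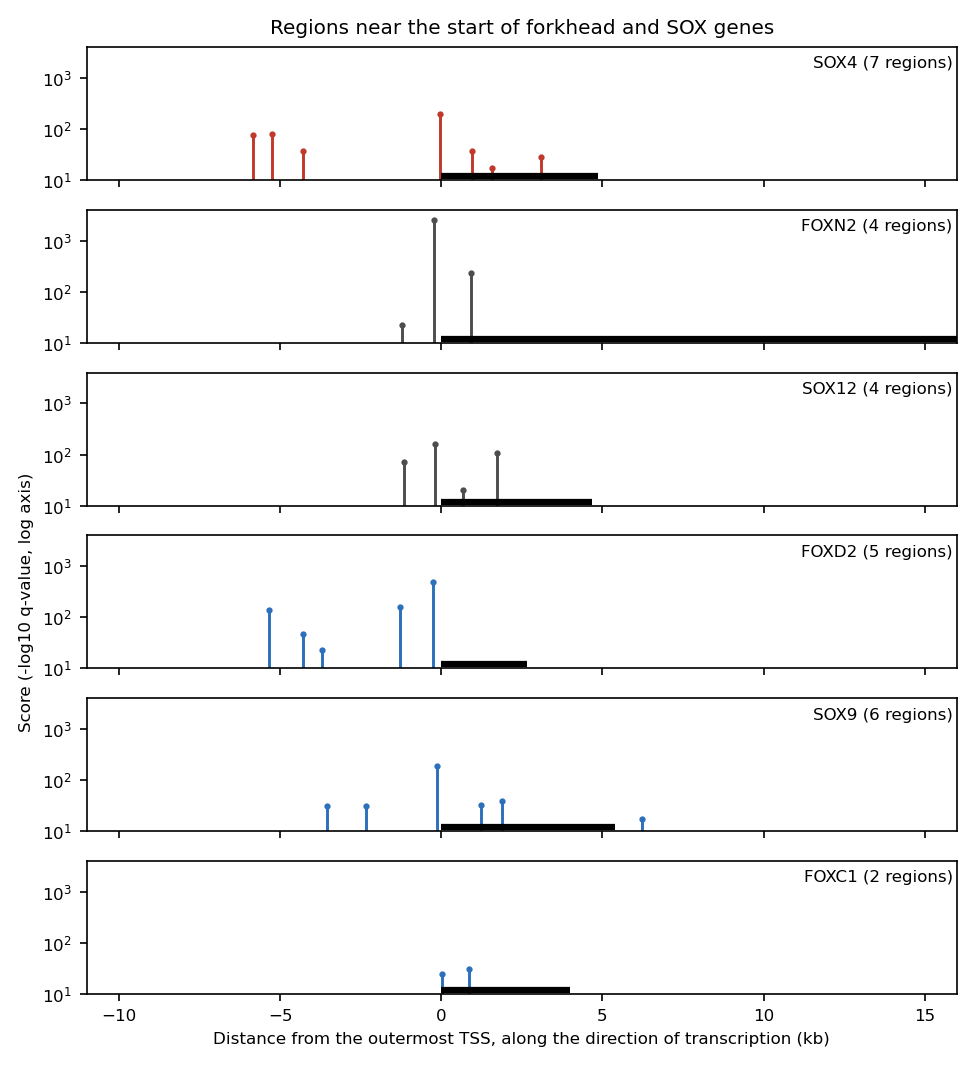
Regions around the start of SOX4, FOXN2, SOX12, FOXD2, SOX9 and FOXC1, by distance from the outermost TSS (x axis, kb along the direction of transcription) and score (y axis, -log10 q-value, log axis), with the gene as a black bar. SOX4, FOXD2 and SOX9 carry several regions upstream of the start, and FOXC1 has 2 regions, both within 1 kb. FOXN2 extends beyond the right edge, and its region of 16.0 in the intron is not shown.

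Several of these promoter regions lay at the start of another gene as well. The FOXA3 region lay nearer to a TSS of SYMPK than to that of FOXA3, which was 691 bp away. The FOXL2 region lay 28 bp from a TSS of FOXL2NB and 503 bp from that of FOXL2. For SOX30 the region nearest its start also lay 210 bp from a TSS of C5orf52. FOXM1, the driver of mitotic gene expression, had a single region of 18.7 at 22 bp that lay 3 bp from a TSS of RHNO1 and 27 bp from one of TULP3. For these regions the list cannot tell which start was open. Near other members lay TSSs of non-coding genes, as for FOXD3-AS1 (88 bp), NRSN2-AS1 at SOX12 (80 bp) and FOXP4-AS1 (110 bp). By the region closest to a TSS, the members nearest to the 1 kb limit were FOXO6 (755 bp) and FOXA3 (691 bp) inside it, and FOXP1 (1877 bp) and SOX2 (2134 bp) well outside it. FOXC1 had its stronger promoter region at 851 bp but another at 5 bp.

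No promoter region was found for 34 lineage factors. They include FOXA1, FOXA2, FOXB2, FOXC2, FOXD1, FOXD4, FOXE1, FOXE3, FOXF1, FOXF2, FOXH1, FOXI1, FOXI2, FOXI3, FOXJ1, FOXL1, FOXN1, FOXN4, FOXQ1, FOXR1, FOXR2, FOXS1, SOX1, SOX2, SOX3, SOX7, SOX8, SOX10, SOX11, SOX14, SOX17, SOX18 and SOX21. Within 5 kb of a start there was a region for SOX2 (2134 bp, score 17.3), FOXH1 (3237 bp, 16.0), FOXB2 (3510 bp, 16.0) and SOX21 (4234 bp, 21.4), and the FOXH1 region belonged to the promoter of PPP1R16A. The closest region lay over 20 kb from any TSS for 23 of 45 lineage factors (51.1%) and 27 of 64 members (42.2%), against 24.2% of all genes. It lay over 100 kb away for 10 members, with 383920 bp for SOX1, the neural factor, and 278759 bp for FOXA1, the pioneer factor of endoderm and breast. Outside the lineage factors, promoter regions were lacking at FOXP1, SOX5, FOXJ3, SOX13, SOX15, FOXP3 and FOXL3. FOXP3 had a region of 856.6 in its upstream flank, 4445 bp from its TSS and 549 bp from one of PPP1R3F.

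By subfamily, all 4 FOXO genes had a promoter region, with scores of 108.2 (FOXO6), 104.4 (FOXO4), 62.6 (FOXO3) and 25.7 (FOXO1), and the 2 FOXK genes did so too (FOXK2 37.8, FOXK1 21.4). Of the FOXN genes, FOXN2 and FOXN3 had one and FOXN1, the thymic epithelial factor, and FOXN4 did not. FOXP2 and FOXP4 had one and FOXP1 and FOXP3 did not. Of the SOX groups, the 5 group B genes (SOX1, SOX2, SOX3, SOX14 and SOX21) and the 3 group F genes (SOX7, SOX17 and SOX18) had none. Group C had it at SOX4 and SOX12 and not at SOX11, group D at SOX6 only of SOX5, SOX6 and SOX13, and group E at SOX9 only of SOX8, SOX9 and SOX10. Classes E, F, I, Q and R of the forkhead genes, 10 genes in all, had no region over the gene and its flanks. Members of a subfamily are few, and none of these counts was tested.

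The starts of the members are rich in CpG dinucleotides, a feature that usually goes with open promoters. A CpG-rich TSS was defined as at least 50% G and C and an observed to expected CpG ratio of at least 0.6. Both were taken within 500 bp of the TSS of the canonical transcript, or of the outermost TSS where none is marked. It was found at 52 of 64 members (81.2%), against 64.4% of all genes. A promoter region was present at 20 of the 52 (38.5%), while the share over all genes with a CpG-rich TSS was 74.4%. For the lineage factors it was 9 of 37 (24.3%). For the broadly used or other genes it was 9 of 11 (81.8%), and FOXJ3 and SOX13 were the exceptions. The members also have fewer annotated TSSs, with a median of 2 against 5 over all genes, and each TSS gives a gene a further chance of a region within 1 kb. Of the 29 members with 1 TSS, 7 (24.1%) had a promoter region, near the 24.7% of all genes with 1 TSS. Of the 26 that were also CpG-rich, 6 (23.1%) had one, against 54.6% of such genes. Of the 35 members with more than 1 TSS, 16 (45.7%, 28.8 to 63.4%) had one, against 63.5% of such genes. Of the 27 lineage factors with 1 TSS, 5 (18.5%, 6.30 to 38.1%) had one, an interval that holds the 24.7% of all genes with 1 TSS. Of the 25 of them with a CpG-rich TSS, 5 (20.0%) had one, against the 54.6% given above. The share of the members thus lay near that of other genes with 1 TSS, and below that of genes with more than 1 TSS and of CpG-rich genes with 1 TSS.

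Of the 160 regions, 67.5% (59.7 to 74.7%) lay over 1 kb from any protein-coding TSS, near the 67.3% of the whole list. By position, 69 were in introns, 39 at the member's own promoters, 8 in exons, 22 in the upstream and 22 in the downstream flank. The median score of the 160 was 31.6, equal to that of the whole list. Of the regions outside the members' own promoters, 13 lay at the promoter of another protein-coding gene. None of these 13 belonged to a lymphoid member, 5 to lineage factors and 8 to broadly used or other genes, such as the IL2RG region of 67.8 downstream of FOXO4. The 23 intronic regions of lymphoid members had a median score of 28.6, the 12 of lineage factors 20.0 and the 34 of broadly used or other genes 34.7.

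The members' own recognition motifs were looked for in these regions as letters on either strand. The forkhead pattern TGTTTAC occurred in 14 of 160 regions (8.75%, 4.87 to 14.2%), against 5.31% of all 50000. The SOX pattern AACAATG occurred in 5 (3.12%, 1.02 to 7.14%), against 5.40% of all. Both intervals hold the share of the whole list. In regions within 1 kb of any coding TSS the forkhead pattern was found in 7 of 52 (13.5%, 5.59 to 25.8%), against 4.11% of all such regions. That interval lies above the 4.11%, and no test was made. The 7 include regions at the promoters of the neighbouring genes AP5Z1, IL2RG and C11orf58, not at a member's own start. Among the other regions the forkhead pattern was found in 6.48% (7 regions, 2.65 to 12.9%) against 5.90%. The SOX pattern was found in 1 of 52 (1.92%) against 3.24%, and in 3.70% of the others (4 regions) against 6.45%. A match is a description of the letters and not a bound site. To show where these letters stand, 61 bp around the match are given for 6 forkhead matches at promoters, upstream or in stronger introns and for 3 SOX matches in lymphoid members, on the plus strand of hg19 with the match in capitals.
FOXO1, promoter, forkhead, chr13:41241071-41241131: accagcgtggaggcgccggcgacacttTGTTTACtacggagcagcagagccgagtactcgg
FOXP2, promoter, forkhead, chr7:114271522-114271582: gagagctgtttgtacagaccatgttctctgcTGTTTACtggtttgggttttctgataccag
SOX12, promoter, forkhead, chr20:306071-306131: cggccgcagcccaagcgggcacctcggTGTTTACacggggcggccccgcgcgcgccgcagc
SOX4, upstream flank, forkhead, chr6:21588933-21588993: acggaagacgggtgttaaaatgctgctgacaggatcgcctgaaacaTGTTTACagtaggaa
FOXN3, intron, forkhead, chr14:89882309-89882369: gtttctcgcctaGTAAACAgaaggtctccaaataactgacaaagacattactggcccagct
FOXK1, intron, forkhead, chr7:4784655-4784715: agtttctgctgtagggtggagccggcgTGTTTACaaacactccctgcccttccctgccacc
FOXO1, intron, SOX, chr13:41163894-41163954: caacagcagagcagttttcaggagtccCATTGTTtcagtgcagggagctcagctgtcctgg
FOXP1, intron, SOX, chr3:71137508-71137568: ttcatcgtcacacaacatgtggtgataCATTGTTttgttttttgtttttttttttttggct
SOX5, intron, SOX, chr12:24286521-24286581: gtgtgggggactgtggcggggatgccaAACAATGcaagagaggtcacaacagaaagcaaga
FOXO1 thus had a forkhead match at its promoter and a SOX match in a distant intronic region, and SOX4 a forkhead match upstream. The matches of FOXN3 and those of FOXO1 and FOXP1 in introns are printed as the reverse complement of the pattern.

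Several patterns of other factors were present in the member regions at shares near those of the whole list, while those of CTCF and SP/KLF stood above it. RUNX (TGTGGTT) was found in 11.2% against 11.6%, AP-1 (TGANTCA) in 15.6% against 16.9%, PU.1 (GAGGAAGT) in 5.00% against 5.14% and NF-kB (GGGANTTCC) in 3.75% against 3.32%. ETS (CCGGAAGT) reached 1.88% against 2.76% and the octamer (ATTTGCAT) was in 4 of 160 regions, against 3.30% of all. EBF1 reached 17.5% against 12.7% and E2A (CAGGTG) 36.2% against 42.3%. The GC-rich patterns of CTCF (AGNNGGCGC) and SP/KLF were each in 15.6% against 10.1%, with intervals of 10.4 to 22.2% that lie just above the share of the list. NRF1 (GCGCATGCG) was in 0 of 160, at most 2.28% by the interval, against 1.21%. The variant TGTTTAT was in 6.25% against 6.64% and AACAAAG in 9.38% against 9.34%. With 15 patterns and no matching of the regions on GC content, these shares are descriptions only.

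Genes that act on FOXO proteins or are known targets of FOXO and FOXM1 were mostly open at their starts. Of 18 genes that act on FOXO proteins, through PI3K, AKT and 14-3-3 proteins or by ubiquitin and acetyl marks, 17 had a promoter region, led by SKP2 (1343.6), a ubiquitin ligase component that degrades FOXO1, YWHAZ (524.8), a 14-3-3 protein, and PIK3CA (423.2), while PDPK1 had none. Of 14 known FOXO target genes 13 did, led by the stress genes GADD45A (2105.5) and SESN3 (2099.6) and the cyclin gene CCNG2 (488.2), and IL7R had none. RAG1, a FOXO1 target of B cell precursors, scored 188.7. Among 8 FOXM1 targets, 7 had a promoter region, led by CENPF (976.2), CCNB1 (406.6) and CKS1B (268.7), with AURKB as the exception. Of 11 other HMG-box genes, 9 had one, led by HBP1 (1141.5), BBX (682.7) and CIC (322.8), and TCF7L1 and TOX had none. Against the 57.2% of all genes, these 4 lists stood at 94.4%, 92.9%, 87.5% and 81.8%, with exact intervals of 72.7 to 99.9%, 66.1 to 99.8%, 47.3 to 99.7% and 48.2 to 97.7%. The 2 last intervals hold the share of all genes. All 4 hold the 74.4% of all genes with a CpG-rich TSS, and the part of CpG content and TSS number in these lists was not tested.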

How the data were processed

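Single-cell ATAC-seq libraries of fixed GM12878 cells were pooled by the authors. Per the study's methods, read pairs were mapped to hg19, low-quality, duplicate and mitochondrial reads removed, summits called on the aggregate and the most significant kept at a fixed width. Tools named in the submitters' processing notes are MACS2 (version not given in the sources used), Picard 1.79 and Bowtie2 2.1.0. The deposited score is the authors' -log10 q-value, taken as such from its values and the methods. Ties are common (784 distinct scores), and close summits of 1 call can give several regions, so that the 50000 regions stem from 43851 calls. Reads dropped as multiply mapped can lower accessibility at near-identical genes.

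Coordinates are hg19, 1-based. Genes and TSSs are those of GENCODE 44 mapped to GRCh37, and regions were placed by their centres. Shares, intervals and medians were computed with numpy 2.4.6, scipy 1.17.1, pandas 2.3.3, pysam 0.24.0 and matplotlib 3.10.9 under Python 3.11.15. The assignment of regions to genes was tested on simulated data. No test was run, since 1 pooled list has no replicate. The members, classes, gene lists and motif patterns were chosen with earlier results of these data known. Named were the 5 lymphoid members, the 10 members highest in promoter score and the 10 with most regions, every lineage factor with a promoter region, the members without one, with the distance where it was within 5 kb, and of each other list the 3 strongest and up to 3 without one. RAG1, single intronic and flank regions and a few further members were chosen with their values in view. A few genes and sequences under this rule are not reported here. Alternatives changed the distance that makes a promoter (500 bp or 2.5 kb), the starts used, the flank (0 or 50 kb), each call counted once, the part of the list, the width searched for motifs and added motif variants. An added alternative, which needs the own TSS to be the nearest protein-coding one, was chosen after seeing the data.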

Additional observations from a re-analysis of the deposited data

How the results depend on the processing

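Of 37 alternatives, 29 stayed within the limits set for a stable value and 8 moved beyond them. No rule for a reversal was set, so none could be counted. For a share the limit was its exact interval. That of the 5 lymphoid members (14.7 to 94.7%) is so wide that staying within it says little. The share of members with a promoter region ranged from 26.6 to 39.1%, that of lymphoid members from 40.0 to 80.0% and that of the lineage factors from 17.8 to 26.7%. Over all genes the share was 48.9% with the regions of at least the median score, where the members stood at 26.6%, and 60.3% at 2.5 kb, where they stood at 39.1%. The window of 2.5 kb added FOXP1 and SOX2, and the 25237 regions of at least the median score lost FOXO1, FOXM1, FOXK1, FOXJ2, FOXB1 and FOXL2. FOXA3, FOXL2 and FOXO6 were lost at 500 bp, FOXB1 and SOX6 with the outermost TSS alone, and FOXA3, FOXL2 and FOXM1 where the own TSS had to be the nearest. The total of 160 regions became 100 without flanks, 263 with flanks of 50 kb and 83 with regions of at least the median score, as fewer or more regions enter by construction. The median of the lymphoid members was 4 with those regions, and that of the lineage factors was 1 with flanks of 50 kb. The share of member regions with the forkhead pattern was 14.4% with TGTTTAT added and 3.12% in the central 201 bp, and that with the SOX pattern was 11.9% with AACAAAG added and 1.25% in the central window. Over all regions these shares were 11.5%, 1.76%, 14.2% and 1.88%. No paired analysis was possible because the data are 1 pooled list of 1 group. The list gives no depth, and only regions above the lowest score kept are seen.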

Other observations

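Genes around the members had a promoter region at a share not far below that of all genes. Of 739 protein-coding genes with a start within 500 kb of a member, 377 (51.0%) had a promoter region, against 57.2% of all protein-coding genes. Around the 34 lineage factors without a promoter region the share was 50.0% of 374. A gene near 2 members is counted for each. FOXJ3, a broadly expressed forkhead gene with 9 TSSs and a CpG-rich start, had no region over its length, and the closest regions lay 140.5 kb below and 120.5 kb above the gene. Whether reads were lost there in mapping or filtering was not tested. Of its 16 protein-coding neighbours within 500 kb, 12 had a promoter region, and 13 regions lay within that distance. By contrast, FOXA1 had 1 region and SOX1 had 2 within 500 kb, and none of the 3 and 1 coding neighbours of FOXA1 and SOX1 had a promoter region. SOX9, which has no coding neighbour within 500 kb, had 49 regions within that distance, and SOX30 had the most of the members with 57. SOX8, on the gene-dense end of chromosome 16, had 9 of 42 neighbours with a promoter region.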
